A study of Drosophila melanogaster with 11 samples.

Results

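Gene expression was compared between the fat bodies of MU10 and MU14, a pair of Drosophila melanogaster isofemale strains from Munich, Germany, using the 2 MU10 libraries and the 3 MU14 libraries out of 11 libraries from 5 such strains. An isofemale strain is bred from 1 wild-caught female, so each strain stands for the descent of a single female and not for its population. The labels give no introduced allele and no treatment for any of the 5 strains, and larvae were reared at 25 °C with 250 larvae per vial. Fat bodies were dissected from females in the late wandering phase of the third larval instar, and each library came from a separate pool of 15 fat bodies. Whether pools of a strain came from separate rearings is not given in the sources used here, so p-values measure the spread between such pools. Levels are given as CPM, counts scaled to library size with TMM factors. The libraries held 49582725 and 35748897 counts in MU10 and 35945293 to 39878246 counts in MU14, and neither strain's libraries stood apart from each other as much as from those of the other strain. Over the tested genes, the Euclidean distance of log2 CPM was 45.1 within MU10 and 39.4 to 46.1 within MU14, whereas it was 85.8 to 95.5 between libraries of MU10 and MU14.

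The larval fat body stores fat, glycogen and protein for metamorphosis, in which no food is taken up. It also secretes haemolymph proteins, detoxifies foreign compounds, makes immune peptides and releases hormones that couple nutrition to growth. Larvae in the late wandering phase have stopped feeding, and the steroid hormone ecdysone then drives the approach to pupariation.

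Of 8415 tested genes, 1615 (19.2%) differed between MU10 and MU14, with 805 genes higher in MU10 (9.57%) and 810 lower (9.63%). Of the called genes 49.8% were thus higher in MU10, against 31.8% with upper-quartile scaling, under which the median log2 difference of all tested genes was -0.14. A gene was called when its Benjamini-Hochberg adjusted p in edgeR's quasi-likelihood test was below 0.05. Called genes differed by at least 2-fold in 889 cases (10.6% of tested genes), of which 392 were higher and 497 lower in MU10, and by at least 4-fold in 315, of which 164 were higher and 151 lower. The median log2 difference of MU10 minus MU14 was 0.98 among called genes higher in MU10 and -1.28 among those lower, against 0.0025 over all tested genes. The libraries of both strains did not overlap at any of the 1615 called genes, as also held for 56.1% of all tested genes. Of the 200 most abundant genes 25 were called (12.5%), 18 of them higher and 7 lower in MU10. Without MU10 replicate 1 the count of called genes was 591, without MU10 replicate 2 it was 726, and the 960 and 1050 called without MU14 replicate 1 and replicate 2 were also below the count in all libraries. Fits without a MU10 library assume that the remaining one varies like the other strains.

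**Figure D1:**
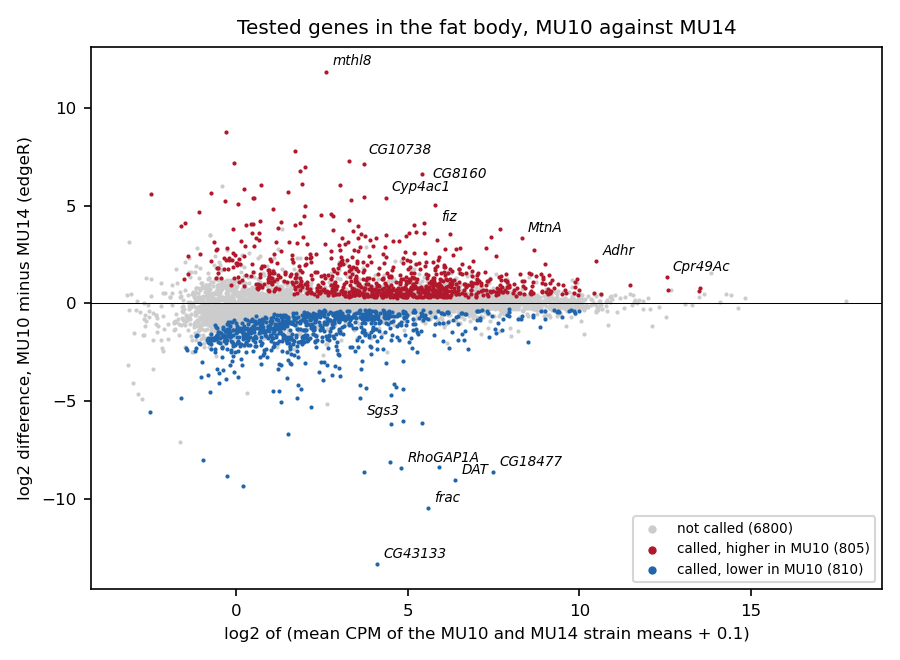
Log2 difference of MU10 minus MU14 for each of the 8415 tested genes against its mean level on a log2 scale of CPM. The 805 red points and the 810 blue points, called higher and lower in MU10, spread about evenly above and below 0, and the widest differences belong to genes of low to intermediate level.

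The fat body label was checked against marker genes. The storage protein genes Lsp1alpha, Lsp1beta, Lsp1gamma and Lsp2, the hexamerin receptor gene Fbp1 and Fbp2, which define larval fat body, together held 320920 to 342430 CPM in MU10 and 281930 to 298990 CPM in MU14. None of these 6 genes was called in the main edgeR fit (2 at an unadjusted p below 0.05) or by limma-voom, and DESeq2 called 2 higher in MU10. With only the 5 libraries of MU10 and MU14 edgeR called 3 higher and 1 lower, and with upper-quartile scaling it called 1 lower. Fbp1 had 245040 and 219110 CPM in MU10, against 223040, 206630 and 217610 CPM in MU14. Lsp1beta had 20401 and 23420 CPM in MU10, against 6965, 6877 and 8409 CPM in MU14, a log2 difference of 1.56 ± 0.59 (SE) that edgeR did not call (adjusted p = 0.10). The libraries of Lsp1beta did not overlap between the strains, but its spread within the other strains was wide.

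Markers of other tissues also differed, at low levels. Salivary gland markers, mainly the glue protein genes that larvae use to fix the puparium, summed to 3.68 and 6.22 CPM in MU10 and 32.5 to 104 CPM in MU14. Of the 7 tested markers 5 were lower in MU10 and 0 higher, and 7 were lower by DESeq2 and 2 by limma-voom. Sgs3 had 0.885 and 0.706 CPM in MU10, against 43.5, 10.5 and 16.4 CPM in MU14 (log2 difference -4.86 ± 0.75 (SE), edgeR's adjusted p = 0.0034). Sgs1 had no count in either MU10 library and 248 counts over the MU14 libraries, so that it was at least 56.3-fold lower in MU10 at a floor of 3 counts over the MU10 libraries. MU17 had sums of 52.1 and 146 CPM for this list. Without either MU10 library 2 of the 7 markers were called lower.

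Female germ line markers summed to 4.88 and 7.44 CPM in MU10 and 16.7 to 22.8 CPM in MU14, against 5.98 to 8.73 CPM in the other 3 strains. Of 5 tested markers 4 were lower in MU10, and 2 were called lower without either MU10 library. The Piwi-pathway gene piwi had 2.33 and 3.94 CPM in MU10, against 10.1, 10.6 and 8.02 CPM in MU14 (log2 difference -1.61 ± 0.25 (SE), edgeR's adjusted p = 0.0032). The germ line helicase gene vas had 0.756 and 1.29 CPM in MU10, against 6.28, 6.24 and 4.13 CPM in MU14 (log2 difference -2.45 ± 0.29 (SE), edgeR's adjusted p = 0.00091). Both genes overlap exons of a neighbour, SCAR for piwi and solo for vas, and whether the counting used strand is not given in the sources used here.

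Haemocyte markers summed to 690.1 and 749 CPM in MU10 and 450.3 to 511 CPM in MU14. Most of this sum was srp, with 574 and 584 CPM in MU10, against 424, 353 and 381 CPM in MU14. Of 8 tested markers 3 were higher in MU10, namely PPO1, a prophenoloxidase gene, the phagocytosis receptor gene NimC1 and srp, a GATA factor gene that the fat body also expresses. PPO1 had 35.0 and 16.5 CPM in MU10, against 9.87, 9.38 and 8.40 CPM in MU14, so that the MU10 libraries differed from each other by more than the MU14 libraries did. None of the 3 was called without MU10 replicate 1 or without MU14 replicate 2. Midgut markers summed to 19.4 and 23.1 CPM in MU10 and 10.6 to 13.4 CPM in MU14, and 0 of 4 tested markers was called by edgeR (3 higher at an unadjusted p below 0.05), 2 by DESeq2 and 1 by limma-voom. Of the 7 tested muscle markers and the 5 tested nervous system markers, 0 were called by edgeR, DESeq2 or limma-voom, with 1 and 0 at an unadjusted p below 0.05. The testis gene Mst87F was the 1 of 3 tested male markers that was called, lower in MU10, but not without either MU10 library. Called markers were 71.4% of the tested salivary gland, 80% of the germ line and 37.5% of the haemocyte markers, against 19.2% of all tested genes. In these bulk samples, fewer cells of a type and less RNA per cell cannot be told apart, and the part of these tissues in the differences below was not tested. When the salivary gland and germ line markers were left out, 1598 genes were called. This took out only the marker genes themselves and no other transcript of those tissues, so it does not measure their part.

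**Figure D2:**
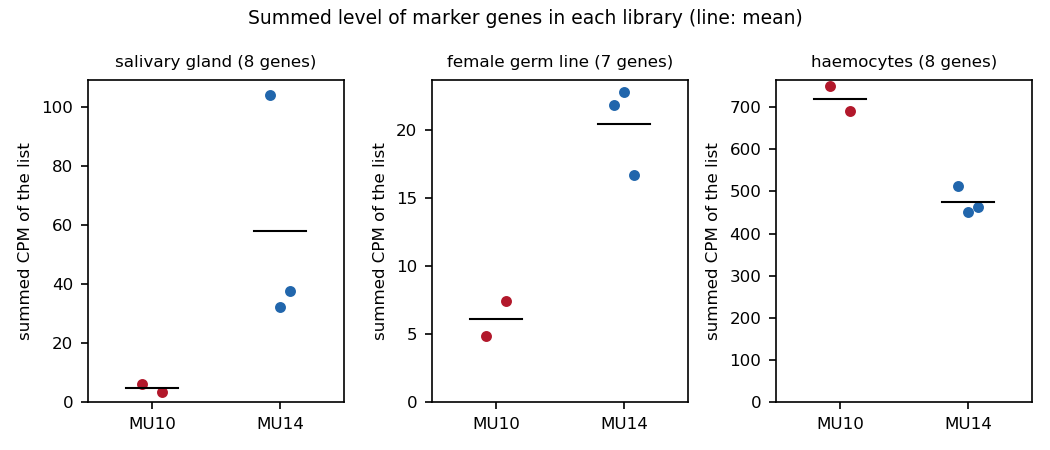
Summed level in CPM of the salivary gland, female germ line and haemocyte markers in each MU10 and MU14 library, with lines at the strain means. MU10 lies below MU14 for salivary gland (3.68 and 6.22 CPM, against 32.5 to 104 CPM) and germ line, and above it for haemocytes (690.1 and 749 CPM, against 450.3 to 511 CPM). The haemocyte sum is mostly srp, a gene that the fat body also expresses.

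The widest differences were of the on-off kind, with a gene near 0 in 1 strain. Highest on this scale among genes higher in MU10 was mthl8 (chromosome arm 3L, 22428 to 26308), a gene of the methuselah family of G-protein-coupled receptors. It had 12.9 and 11.1 CPM in MU10 and 0 in the 3 MU14 libraries, 974 counts against 0, and was at least 478-fold higher in MU10 at a floor of 3 counts over the MU14 libraries. The other strains had means of 3.10 to 13.2 CPM, so that MU14 was the strain without detectable mthl8 transcript at this depth. CG10738 (3L, 13450770 to 13465539) had 25.6 and 26.7 CPM in MU10, against 0.160, 0.221 and 0.17 CPM in MU14, a log2 difference of 7.13 ± 0.26 (SE) with an edgeR adjusted p of 2.81e-06. The means of the other 3 strains were 0.0505 to 0.152 CPM, so here MU10 alone was high. CG6168 (3L, 11319642 to 11321719) was likewise high in MU10 alone, with 7.39 and 5.24 CPM in MU10, against 0, 0.0491 and 0.0243 CPM in MU14, which are 520 counts against 3.

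Cyp4ac1, a cytochrome P450 gene, had 36.9 and 42.4 CPM in MU10, against 0.638, 1.01 and 1.12 CPM in MU14 (log2 difference 5.42 ± 0.42 (SE), edgeR's adjusted p = 0.00013). CG43920 had 17.3 and 20.7 CPM in MU10 and at most 0.196 CPM in MU14, and CG42268 had 16.2 and 15.1 CPM in MU10 and at most 0.270 CPM in MU14. Ca-Ma2d, which encodes an auxiliary subunit of voltage-gated calcium channels, had 25.8 and 25.4 CPM in MU10, against 0.745, 0.246 and 0.777 CPM in MU14. These 4 genes had replicates close together in both strains relative to the gap between them. The replicates of MU10 were far apart at CG8160, with 32.3 and 134 CPM in MU10, against 0.213, 0.712 and 1.58 CPM in MU14, and at dpr12, an immunoglobulin superfamily gene of neurons, with 4.95 and 34 CPM in MU10, against 0.426, 0.589 and 0.461 CPM in MU14. The MU10 and MU14 libraries did not overlap at either gene. CG8160 kept its call under every alternative, whereas dpr12 lost its call under an alternative other than leaving out a library.

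Among genes lower in MU10, CG43133 (X, 18129585 to 18130178) had no count in either MU10 library, against 32.5, 21.7 and 47.6 CPM in MU14. It was at least 907-fold lower in MU10 at a floor of 3 counts over the MU10 libraries, and its means in the other strains were at most 0.0424 CPM. A similar pattern, with MU14 alone high, was seen at frac (3L, 7562610 to 7569499), with 0.0432 and 0.0883 CPM in MU10, against 69.5, 92.1 and 125 CPM in MU14 (log2 difference -10.50 ± 0.41 (SE), edgeR's adjusted p = 2.96e-06). The dopamine transporter gene DAT (2R, 16558567 to 16565238) had 0.281 and 0.353 CPM in MU10, against 162, 131 and 206 CPM in MU14 (log2 difference -9.04 ± 0.34 (SE), edgeR's adjusted p = 2.81e-06), and at most a mean of 0.900 CPM in the other strains. CG4945 (2R, 16566023 to 16570120), which lies beside DAT, had 0.0648 and 0.0588 CPM in MU10, against 25.5, 20.8 and 32.5 CPM in MU14, and was near 0 in the other strains too. Its exons overlap those of RpS15 on the opposite strand. Cpr31A, a cuticle protein gene, had 0.0864 and 0.235 CPM in MU10, against 39.0, 36.3 and 56.6 CPM in MU14.

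At 3 further genes MU10 alone was low. RhoGAP1A (X, 127449 to 140340) had 0.238 and 0.0588 CPM in MU10, against 58.8, 50.9 and 57.6 CPM in MU14 and means of 62.2 to 82.7 CPM in the other strains (log2 difference -8.43 ± 0.33 (SE), edgeR's adjusted p = 2.96e-06). It shares exon sequence with tyn on the same strand. CG18477 (2L, 15661041 to 15662753) had 1.01 and 0.736 CPM in MU10, against 420, 306 and 347 CPM in MU14, and CG31780 (2L, 15696038 to 15697750) had 0.346 and 0.382 CPM in MU10, against 143, 101 and 117 CPM in MU14. Both had means of at least 48.1 CPM in each of the other 3 strains. CG18477 and CG31780 lie close together on 2L and ranked the MU14 libraries and the other 3 strains in the same order. Whether they share reads was not tested, so they may not be separate differences. The calls at all 16 genes of widest difference were kept when each MU10 and MU14 library was left out in turn.

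**Figure D3:**
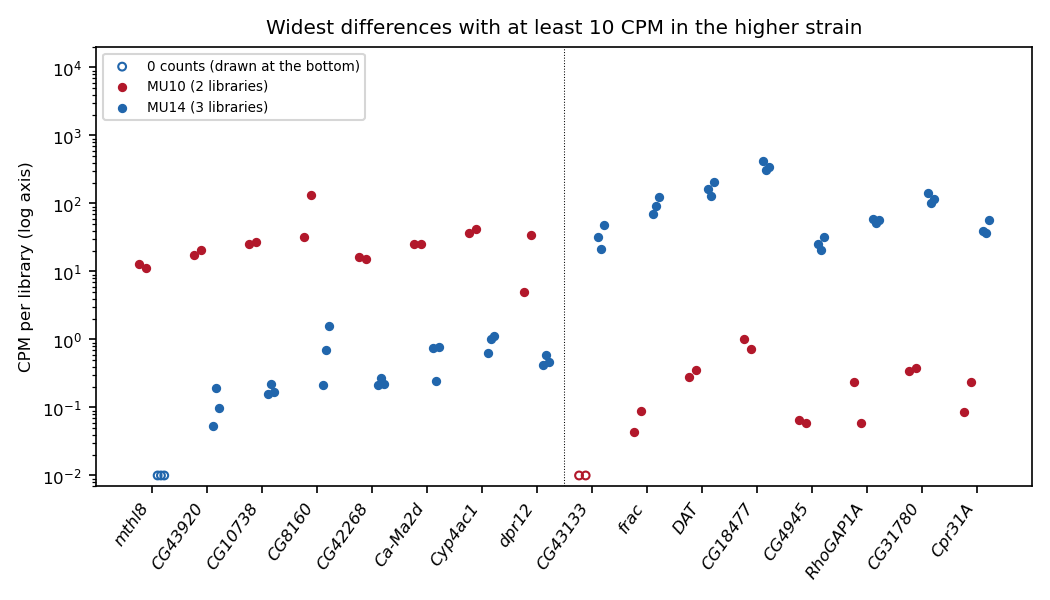
Level in CPM on a log axis of the 8 genes with the widest difference in each direction that were called and averaged 10 CPM or more in 1 strain, with a point for each library. Replicates lie close together relative to the gap between MU10 and MU14 except for the MU10 points of CG8160 and dpr12, and open circles mark mthl8 in MU14 and CG43133 in MU10, which had 0 counts.

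Among the 200 most abundant genes, differences were smaller. Cpr49Ac (2R, 12386666 to 12390057), a cuticle protein gene, had 8459 and 8680.0 CPM in MU10, against 3145, 4019 and 2820.5 CPM in MU14 (log2 difference 1.36 ± 0.15 (SE), edgeR's adjusted p = 0.00058). LManII, a lysosomal alpha-mannosidase gene, had 3906 and 3602 CPM in MU10, against 1868, 2028 and 2038 CPM in MU14 (log2 difference 0.92 ± 0.11 (SE), edgeR's adjusted p = 0.0010), and P5CS, which encodes an enzyme of proline synthesis, had 1245 and 1304 CPM in MU10, against 481, 601 and 694 CPM in MU14 (log2 difference 1.11 ± 0.16 (SE), edgeR's adjusted p = 0.0026). Cpr49Ac, LManII and P5CS kept their calls without any single library. CG18563 was also higher in MU10, by 0.96 ± 0.27 (SE) on the log2 scale, but its call was lost without any 1 of the 5 libraries (adjusted p up to 0.22). Among abundant genes lower in MU10 the widest was Cyp4d1, with 494 and 605 CPM in MU10, against 673, 1102 and 891 CPM in MU14, and this call was lost without any 1 library other than MU14 replicate 1 (adjusted p up to 0.24). The other 5 of the 6 widest abundant genes lower in MU10 encode ribosomal proteins.

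Of 12 tested genes of glycogen and trehalose metabolism 6 were higher in MU10 and 0 lower, and the list's median log2 difference was 0.71. Called genes were 50% of this list, against 19.2% of all tested genes. Glyp, the glycogen phosphorylase gene, had 89.3 and 79.0 CPM in MU10, against 21.5, 31.0 and 35.6 CPM in MU14 (log2 difference 1.52 ± 0.28 (SE), edgeR's adjusted p = 0.0077), and Glys, the glycogen synthase gene, had 23.3 and 18.2 CPM in MU10, against 8.09, 7.78 and 9.23 CPM in MU14 (log2 difference 1.31 ± 0.25 (SE), edgeR's adjusted p = 0.0085). Genes of breakdown and of synthesis of glycogen were thus both higher in MU10. The trehalose transporter genes Tret1-1 and Tret1-2, the trehalase gene Treh and the phosphoglucomutase gene Pgm1 were the other 4. Tret1-2 had 14.4 and 16.6 CPM in MU10, against 3.46, 4.71 and 5.34 CPM in MU14 (log2 difference 1.78 ± 0.16 (SE), edgeR's adjusted p = 0.00024). Leaving out MU10 replicate 1, MU10 replicate 2 or MU14 replicate 1 left 2, 3 or 4 calls in the list, and adjusted p without a library reached 0.059 for Glyp, 0.075 for Glys and 0.14 for Treh.

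The median log2 difference of 15 tested glycolysis genes was 0.48, and 40% of them were called, against 19.2% of all tested genes. Of the 15, 6 were higher in MU10 and 0 lower. They were Hex-C, Pgi, Pfk, Gapdh2, Pgk and Pglym78, which encode enzymes from hexokinase to phosphoglycerate mutase. Pgi had 209 and 159 CPM in MU10, against 61.5, 82.8 and 84.5 CPM in MU14 (log2 difference 1.27 ± 0.26 (SE), edgeR's adjusted p = 0.012), and Pglym78 had 77.7 and 62.2 CPM in MU10, against 28.9, 32.3 and 33.1 CPM in MU14 (log2 difference 1.15 ± 0.18 (SE), edgeR's adjusted p = 0.0034). At Hex-C, Pgi, Pfk and Pglym78 MU10 replicate 1 was the higher MU10 library. Without MU10 replicate 1 only 1 glycolysis gene was called, Pglym78, and the call of Hex-C was lost without any 1 of the 5 libraries (adjusted p up to 0.29). MU12 also had high means at these genes, 222 CPM for Pgi and 71.9 CPM for Pglym78.

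Of 7 tested maltase genes 1 was called, Mal-A6, with 625 and 618 CPM in MU10, against 242, 241 and 219.6 CPM in MU14 (log2 difference 1.41 ± 0.17 (SE), edgeR's adjusted p = 0.0011). That is 14.3% of the maltase list, against 19.2% of all tested genes. Of 3 tested lysosomal alpha-mannosidase genes 2 were higher in MU10, LManII and LManVI (66.7% called). In the citric acid cycle 3 of 16 tested genes were higher and 1 lower in MU10, with a median log2 difference of 0.08. Called genes were 25% of the citric acid cycle list, against 19.2% of all tested genes. ScsbetaG, a subunit gene of succinyl-CoA synthetase, had 316 and 339 CPM in MU10, against 145, 149.8 and 152 CPM in MU14 (log2 difference 1.14 ± 0.16 (SE), edgeR's adjusted p = 0.0020), and was the only one of the 3 still called without MU10 replicate 1. ScsbetaA and mAcon1 were higher in MU10 too, but lost their calls without any 1 of the 5 libraries (adjusted p up to 0.18 and 0.19). SdhA, the gene of the flavoprotein of succinate dehydrogenase, had 11.9 and 12.2 CPM in MU10, against 17.0, 17.3 and 18.1 CPM in MU14, and overlaps CG11257 on the opposite strand. Of 64 tested genes of oxidative phosphorylation 0 were higher and 3 lower in MU10 (4.69%), namely ATPsynbeta, Cyt-c1 and ND-B14.5B, with log2 differences of -0.65, -0.44 and -0.52. Without MU10 replicate 2 only ND-B14.5B was called.

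Of 87 tested cytosolic ribosomal protein genes 1 was higher and 15 were lower in MU10 (18.4% called, close to the 19.2% of all tested genes), and the median log2 difference was -0.15. RpL41 had 761 and 777 CPM in MU10, against 1125, 1144 and 1006 CPM in MU14 (log2 difference -0.51 ± 0.10 (SE), edgeR's adjusted p = 0.0091), and RpS12 had 319 and 331 CPM in MU10, against 448, 516 and 487 CPM in MU14 (log2 difference -0.57 ± 0.10 (SE), edgeR's adjusted p = 0.0054). The number called lower depended on the scaling and on single libraries: 39 were lower with upper-quartile scaling and 27 by DESeq2, against 1 when MU10 replicate 1 was left out, 3 when MU10 replicate 2 was, and 4 without MU14 replicate 1 or replicate 2. The paralogues RpS5b and RpS19b, which are enriched in the germ line, were among the 15, with 0.713 and 2.09 CPM in MU10, against 4.52, 5.77 and 3.16 CPM in MU14 for RpS5b.

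The nearly identical copies RpS14a and RpS14b differed in opposite directions. RpS14a had 269 and 285 CPM in MU10, against 676, 701 and 546 CPM in MU14 (log2 difference -1.21 ± 0.13 (SE), edgeR's adjusted p = 0.00053), whereas RpS14b had 449 and 492 CPM in MU10, against 282, 290.2 and 338 CPM in MU14 (log2 difference 0.63 ± 0.11 (SE), edgeR's adjusted p = 0.0050). Their sum was 718 and 777 CPM in MU10, against 959, 991 and 884 CPM in MU14. Because read pairs that fitted more than 1 gene were discarded, the split between such copies is uncertain.

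Of 72 tested mitochondrial ribosomal protein genes 1 was higher (mRpL33) and 12 were lower in MU10 (18.1% called, close to the 19.2% of all tested genes), with a median log2 difference of -0.25, and 3 were lower without either MU10 library. mRpL49 had 3.04 and 2.50 CPM in MU10, against 5.32, 6.06 and 4.35 CPM in MU14, and mRpL3 had 5.92 and 5.44 CPM in MU10, against 8.16, 9.87 and 8.91 CPM in MU14. Aminoacyl-tRNA synthetase genes, which encode the enzymes that load amino acids onto tRNA, had 8 of 18 tested members lower and 0 higher in MU10 and a median log2 difference of -0.47. Their share called was 44.4%, against 19.2% of all tested genes. ValRS had 11.7 and 10.5 CPM in MU10, against 18.1, 20.2 and 20.8 CPM in MU14 (log2 difference -0.83 ± 0.16 (SE), edgeR's adjusted p = 0.0090), and SerRS had 15.8 and 16.3 CPM in MU10, against 21.3, 24.4 and 24.5 CPM in MU14 (log2 difference -0.54 ± 0.10 (SE), edgeR's adjusted p = 0.0073). Only 1 of the 18 was called without either MU10 library, and 5, 3 and 5 were called without MU14 replicate 1, 2 and 3. Of 32 tested proteasome genes 0 were called in the main edgeR fit (1 at an unadjusted p below 0.05) and by limma-voom. DESeq2 called 1, as did edgeR with only the 5 libraries of MU10 and MU14, and the median log2 difference was -0.01. Rpn2 had 258 and 276 CPM in MU10, against 294, 254 and 300.5 CPM in MU14, so the strains overlapped.

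**Figure D4:**
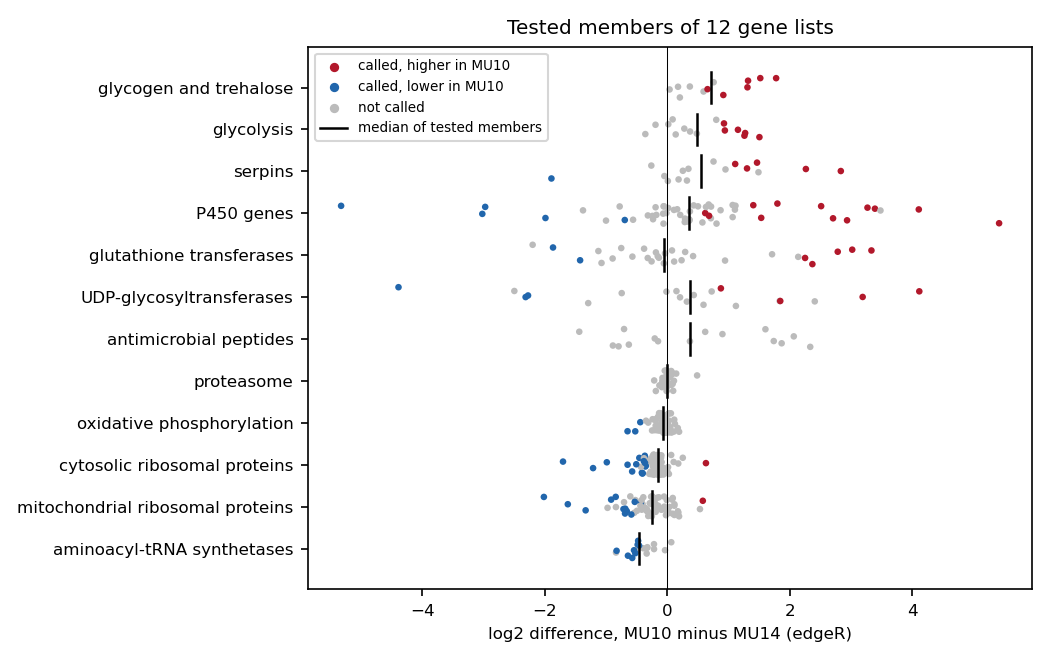
Log2 difference of MU10 minus MU14 for each tested member of 12 gene lists, coloured by call, with a bar at each list's median. Medians lie above 0 for glycogen and trehalose (0.71), serpins (0.55) and glycolysis (0.48) and below 0 for aminoacyl-tRNA synthetases (-0.47) and mitochondrial ribosomal proteins (-0.25), and P450 genes spread widely in both directions.

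Detoxification families held large differences in both directions. Cytochrome P450 genes encode haem enzymes that oxidise lipids, hormones and toxins. Of 56 tested P450 genes 12 were higher and 5 lower in MU10 (30.4% called, against 19.2% of all tested genes). Without MU10 replicate 2, 7 were higher and 2 lower. Cyp4ad1 had 85.6 and 80.2 CPM in MU10, against 3.30, 6.48 and 4.64 CPM in MU14 (log2 difference 4.11 ± 0.36 (SE), edgeR's adjusted p = 0.00019). Cyp6g1, known for its part in insecticide resistance, had 14048 and 13773 CPM in MU10, against 7654, 9906 and 9587 CPM in MU14 (log2 difference 0.62 ± 0.13 (SE), edgeR's adjusted p = 0.011). In the opposite direction, Cyp6a13 had 0.194 and 0.235 CPM in MU10, against 8.56, 9.01 and 8.31 CPM in MU14 (log2 difference -5.32 ± 0.31 (SE), edgeR's adjusted p = 2.65e-05), and MU17 and MU26 had means of 40.3 and 61.8 CPM. Cyp6a23 was lower and its neighbour and close paralogue Cyp6a17 higher in MU10, with 1.01 and 1.56 CPM in MU10, against 9.68, 8.50 and 12.9 CPM in MU14 for Cyp6a23 and 9.24 and 13.7 CPM in MU10, against 1.44, 1.57 and 2.23 CPM in MU14 for Cyp6a17.

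Glutathione transferase genes, which encode enzymes that couple toxins to glutathione, had 5 of 29 tested members higher and 2 lower in MU10, and without MU10 replicate 2 they had 4 higher and 0 lower. GstE11 had 26.9 and 34.2 CPM in MU10, against 2.85, 3.46 and 2.77 CPM in MU14 (log2 difference 3.33 ± 0.22 (SE), edgeR's adjusted p = 4.75e-05), and GstE7 had 175 and 122 CPM in MU10, against 18.5, 24.2 and 21.9 CPM in MU14 (log2 difference 2.78 ± 0.45 (SE), edgeR's adjusted p = 0.0042). GstE1 and GstE6 of the same cluster were also higher in MU10, while GstE8 had 66.6 and 44.0 CPM in MU10, against 142, 176 and 127 CPM in MU14, and was lower. Called members made up 24.1% of the glutathione transferase list and 35% of the UDP-glycosyltransferase list, against 19.2% of all tested genes. Of 20 tested UDP-glycosyltransferase genes 4 were higher and 3 lower in MU10, and 0 were higher and 2 lower without MU10 replicate 1. Ugt37A3 had 2.72 and 2.50 CPM in MU10, against 73.6, 58.1 and 32.4 CPM in MU14 (log2 difference -4.39 ± 0.39 (SE), edgeR's adjusted p = 0.00019), and Ugt317A1 had 4.88 and 6.56 CPM in MU10, against 23.6, 30.0 and 31.4 CPM in MU14 (log2 difference -2.31 ± 0.19 (SE), edgeR's adjusted p = 0.00017).

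Of 15 tested genes of lipid droplets, lipolysis and lipoproteins 2 were higher in MU10 and 0 lower (13.3% called, against 19.2% of all tested genes), namely Lpin, which encodes a phosphatidate phosphatase of triglyceride synthesis, and bmm, which encodes a triglyceride lipase. Lpin had 345 and 264 CPM in MU10, against 104, 115 and 125 CPM in MU14 (log2 difference 1.41 ± 0.31 (SE), edgeR's adjusted p = 0.014), and bmm had 183 and 127 CPM in MU10, against 59.7, 65.5 and 94.8 CPM in MU14 (log2 difference 1.08 ± 0.25 (SE), edgeR's adjusted p = 0.018). Both calls were lost without MU10 replicate 1 and without MU14 replicate 1, and that of bmm also without MU14 replicate 2 (adjusted p up to 0.11 for Lpin and 0.15 for bmm). Of 14 tested genes of fatty acid synthesis 2 were higher in MU10, ATPCL, which encodes ATP citrate lyase, and SCAP, which encodes the escort of the sterol regulatory factor, and both were lost without MU10 replicate 1. The 2 genes are 14.3% of that list. In fatty acid oxidation 1 of 19 tested genes was higher and 2 lower in MU10 (15.8% called). The acyl-CoA dehydrogenase gene CG4860 had 10.3 and 13.0 CPM in MU10, against 73.3, 67.4 and 55.8 CPM in MU14 (log2 difference -2.49 ± 0.22 (SE), edgeR's adjusted p = 0.00019), while the peroxisomal oxidase gene Acox3 had 175 and 172 CPM in MU10, against 69.4, 96.4 and 81.6 CPM in MU14 (log2 difference 1.07 ± 0.15 (SE), edgeR's adjusted p = 0.0024). Acox57D-p was lower in MU10 but lost its call without MU10 replicate 1 or 2 or MU14 replicate 1 or 3 (adjusted p up to 0.14).

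Of 19 tested genes of amino acid and methionine metabolism 3 were higher and 2 lower in MU10. That is 26.3% of the list, against 19.2% of all tested genes. Gnmt, which encodes the glycine methyltransferase that uses up S-adenosylmethionine, had 122 and 109 CPM in MU10, against 21.3, 42.1 and 38.0 CPM in MU14 (log2 difference 1.77 ± 0.35 (SE), edgeR's adjusted p = 0.00995). Ahcy, whose product removes the S-adenosylhomocysteine so formed, had 140.1 and 142 CPM in MU10, against 79.7, 91.4 and 87.3 CPM in MU14 (log2 difference 0.71 ± 0.14 (SE), edgeR's adjusted p = 0.0093), and Hn, which encodes phenylalanine hydroxylase, had 1193 and 1242 CPM in MU10, against 542, 658 and 816 CPM in MU14. Adgf-A, an adenosine deaminase gene, and Faa, which encodes fumarylacetoacetase, were lower. None of the 5 kept its call without MU10 replicate 1, and 1 did without MU10 replicate 2.

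Of 12 tested genes listed as fat body and related endocrine signals 2 were higher in MU10, Lst and CCHa2, and 1 was lower, stan. That is 25% of this list, against 19.2% of all tested genes. The listed gene stan is not a known endocrine signal, and it was below 2 CPM in every library. CCHa2, a peptide hormone that the fat body releases on feeding and that promotes insulin release, had 246 and 245 CPM in MU10, against 142, 140.1 and 150.2 CPM in MU14 (log2 difference 0.77 ± 0.11 (SE), edgeR's adjusted p = 0.0025). Lst, known for a hormone that suppresses insulin release in adult flies, had 1212.5 and 1547 CPM in MU10, against 644, 556 and 565 CPM in MU14 (log2 difference 1.23 ± 0.25 (SE), edgeR's adjusted p = 0.011), and was lost without MU10 replicate 2 (adjusted p up to 0.086). Of 18 tested genes of insulin and growth signalling 1 was higher (the amino acid transporter gene slif) and 1 lower, Myc, a transcription factor gene of growth, with 5.03 and 7.97 CPM in MU10, against 11.5, 10.7 and 12.1 CPM in MU14, and neither was called without MU10 replicate 1. Of 19 tested ecdysone response genes 1 was higher and 2 lower in MU10. The share called was 15.8% in this list and 11.1% in insulin and growth signalling, against 19.2% of all tested genes. Eip63F-1 differed most among ecdysone response genes, with 0.885 and 0.765 CPM in MU10, against 9.71, 8.35 and 10.5 CPM in MU14. Its log2 difference was -3.52 ± 0.72 (SE), with an edgeR adjusted p of 0.012, and its call was not kept under every alternative. Its exons overlap those of asRNA:Eig63F-2 on the opposite strand. Eip75B, a nuclear receptor gene induced early by ecdysone, had 489.7 and 465 CPM in MU10, against 325, 315 and 335 CPM in MU14 (log2 difference 0.56 ± 0.14 (SE), edgeR's adjusted p = 0.026), but its call was lost without any 1 of the 5 libraries (adjusted p up to 0.15).

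The X-linked gene fiz (14906334 to 14909708), a glucose-methanol-choline oxidoreductase gene, had 104 and 110 CPM in MU10, against 2.21, 4.71 and 2.67 CPM in MU14 (log2 difference 5.06 ± 0.43 (SE), edgeR's adjusted p = 0.00018). Its neighbour CG9512 (14901844 to 14905549) had 65.8 and 46.7 CPM in MU10, against 4.89, 5.13 and 5.49 CPM in MU14 (log2 difference 3.44 ± 0.17 (SE), edgeR's adjusted p = 1.19e-05). Means in the other strains were 52.8 to 121 CPM for fiz and 16.9 to 96.1 CPM for CG9512, so that MU14 was the lowest strain at both. The other 5 of the 7 tested genes of this cluster were not called. Methuselah receptor genes were called in 6 of 11 tested members, 3 higher and 3 lower in MU10, and without either MU10 library 1 was higher and 2 lower. Beside mthl8, mthl10, known as a receptor for growth-blocking peptides, had 4.15 and 4.71 CPM in MU10, against 45.4, 31.8 and 32.6 CPM in MU14 (log2 difference -3.05 ± 0.29 (SE), edgeR's adjusted p = 0.00031), and MU14 was above all other strains there. mthl1 had 2.76 and 3.09 CPM in MU10, against 6.78, 7.39 and 8.62 CPM in MU14. Idgf1, an imaginal disc growth factor gene, was the 1 called gene among 11 tested growth factor and chitinase genes, with 247 and 219 CPM in MU10, against 81.5, 101 and 116 CPM in MU14 (log2 difference 1.23 ± 0.17 (SE), edgeR's adjusted p = 0.0020). That is 9.09% of the growth factor and chitinase list, against 19.2% of all tested genes. Called genes were 54.5% of the methuselah list and 28.6% of the oxidoreductase cluster that holds fiz.

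Of 15 tested antimicrobial peptide genes 0 were called in the main edgeR fit, by DESeq2 or by limma-voom (0 at an unadjusted p below 0.05). Of 17 tested Bomanin, Daisho and baramicin genes 0 were called in the main edgeR fit and by limma-voom and 1 by DESeq2 (1 at an unadjusted p below 0.05). With only the 5 libraries of MU10 and MU14 edgeR called 1 lower in each list. Under the other count filters, which tested 17 or 19 antimicrobial peptide genes, it called 1 of these higher. The drosomycin gene Drs had 538 and 950.1 CPM in MU10, against 1294, 977 and 1854 CPM in MU14, with no overlap but a standard error of 0.66 around a log2 difference of -0.89. Of 35 tested genes of peptidoglycan recognition and of the Toll and Imd pathways 3 were higher and 1 lower in MU10 (11.4% called, against 19.2% of all tested genes). Among Turandot and JAK-STAT genes the share called was 8.33%. grass, a protease gene upstream of Toll, had 127 and 137 CPM in MU10, against 76.5, 78.5 and 68.3 CPM in MU14 (log2 difference 0.83 ± 0.14 (SE), edgeR's adjusted p = 0.0049). The Toll adaptor gene tub and the kinase gene Tak1 were also higher and the Imd adaptor gene Fadd was lower, and none of these 3 kept its call without MU10 replicate 1 (adjusted p up to 0.074, 0.21 and 0.10). Of 12 tested Turandot and JAK-STAT genes 1 was called, TotZ, at 0.130 and 0.118 CPM in MU10, against 2.05, 1.15 and 1.97 CPM in MU14, and it was not called without either MU10 library.

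Serpin genes, whose products inhibit serine proteases of the haemolymph, had 5 of 16 tested members higher and 1 lower in MU10 and a median log2 difference of 0.55. Called members made up 37.5% of this list, against 19.2% of all tested genes. Spn42Dd (2R, 6883280 to 6884873) had 157 and 165 CPM in MU10, against 19.3, 24.0 and 24.4 CPM in MU14 (log2 difference 2.83 ± 0.15 (SE), edgeR's adjusted p = 1.79e-05), and the other strains had means of 106 to 214 CPM, so that MU14 was the low strain. Spn42Dc, which shares exons with Spn42Dd, and Spn42Db of the same cluster were higher in MU10 by 1.30 ± 0.09 and 1.11 ± 0.16 (SE) on the log2 scale. Spn43Ab had 161 and 218 CPM in MU10, against 52.4, 79.9 and 73.4 CPM in MU14, and its call was lost without any 1 of the 5 libraries (adjusted p up to 0.16). Without MU10 replicate 2 or MU14 replicate 1 the list had 3 members called higher.

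Of 9 tested small heat shock protein genes 2 were higher and 2 lower in MU10. The share called was 44.4% in this list and 11.8% among large chaperone genes, against 19.2% of all tested genes. Hsp27 (3L, 9384063 to 9385694) had 890 and 741 CPM in MU10, against 319, 342 and 236 CPM in MU14 (log2 difference 1.45 ± 0.33 (SE), edgeR's adjusted p = 0.017), a call that was lost without any 1 library other than MU14 replicate 2 (adjusted p up to 0.10). l(2)efl had 5.66 and 8.71 CPM in MU10, against 1.33, 1.82 and 1.82 CPM in MU14 (log2 difference 2.11 ± 0.23 (SE), edgeR's adjusted p = 0.00057). Hsp67Ba and CG4456, whose exons overlap Hsp22, were lower. Of 17 tested large chaperone genes 0 were higher and 2 lower in MU10, Hsp70Bc and Hsc70-2, both under 5 CPM and neither called without MU10 replicate 1 or 2.

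Among 4 tested metallothionein genes, whose products bind copper, zinc and cadmium, MtnA (3R, 9783407 to 9784370) was higher in MU10, with 530 and 630.1 CPM in MU10, against 18, 60.4 and 91.2 CPM in MU14 (log2 difference 3.36 ± 0.77 (SE), edgeR's adjusted p = 0.018). Means in the other strains were 1.43 to 81.1 CPM, so that MU10 was the highest strain, and the call was lost without either MU10 library or MU14 replicate 2 (adjusted p up to 0.074). Of 10 tested genes of iron handling Mvl, a metal transporter gene, and Mco1, a multicopper oxidase gene, were higher in MU10, and Mvl lost its call without any 1 of the 5 libraries (adjusted p up to 0.18). Irp-1B, an iron regulatory protein gene, was lower, with 126 and 116 CPM in MU10, against 370.4, 223 and 339 CPM in MU14, and lost its call without any 1 library other than MU14 replicate 2 (adjusted p up to 0.14). Of 21 tested redox enzyme genes 3 were higher and 1 lower in MU10 (19.0% called, close to the 19.2% of all tested genes). The share called was 11.1% among odorant-binding protein genes and 11.8% among vacuolar ATPase genes. It was 25% among metallothionein genes, 30% among iron handling genes and 35.7% among cuticle protein genes. The superoxide dismutase gene Sod1 had 284 and 283 CPM in MU10, against 188, 197 and 184 CPM in MU14 (log2 difference 0.58 ± 0.10 (SE), edgeR's adjusted p = 0.0050), and none of the 3 higher genes, Sod1, Gclm and Gtpx, was called without MU10 replicate 1. Of 9 tested odorant-binding protein genes 1 was higher in MU10, Obp99c, whose exons overlap Gycalpha99B, and its call was lost without any 1 library other than MU14 replicate 1 (adjusted p up to 0.23). Of 14 tested cuticle protein genes 3 were higher and 2 lower in MU10, and 1 of each without either MU10 library. Of 17 tested vacuolar ATPase genes 1 was higher and 1 lower, and neither was called without any 1 library. Of 19 tested autophagy genes 0 were called in the main edgeR fit and by limma-voom and 1 by DESeq2, with 5 at an unadjusted p below 0.05. Upper-quartile scaling in edgeR gave 1 called lower.

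Called genes were spread over all chromosome arms, with shares of 17.3% on X, 18.3% on 3R, 18.4% on 2R, 20.1% on 3L, 21.8% on 2L and 25.4% of the 71 tested genes on chromosome 4. All coordinates are those of Release 6 (BDGP6.54). Among windows of 1 Mb with at least 20 tested genes, the highest share was 61.5% on 2L from 14000001 to 15000000, where 16 of 26 tested genes were called, 10 higher and 6 lower in MU10. Next in rank was 2L from 20000001 to 21000000, which does not adjoin it, with 23 of 56 genes called (41.1%), 7 higher and 16 lower.

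The window with 16 called genes holds the alcohol dehydrogenase gene Adh and its downstream relative Adhr (both 14615552 to 14618902), which are made from a shared transcript, so the split of reads between them is uncertain. Adh had 899 and 752 CPM in MU10, against 212, 191 and 197 CPM in MU14 (log2 difference 2.04 ± 0.34 (SE), edgeR's adjusted p = 0.0049). Adhr had 2602 and 2115 CPM in MU10, against 555, 504 and 514 CPM in MU14 (log2 difference 2.17 ± 0.34 (SE), edgeR's adjusted p = 0.0034). The gene osp, whose span includes both, was higher in MU10 by 0.48 ± 0.14 (SE) on the log2 scale. Further along lay a run of 6 neighbouring tested genes (14737090 to 14774981) that were each higher in MU10, CG31775, CG42586, CG34166, CG42681, CG42587 and CG4650, with a median log2 difference of 1.24. Runs count tested genes only, so untested genes may lie between their members. CG34166 had 13333 and 16212 CPM in MU10, against 7254, 10167 and 8433 CPM in MU14, and CG42587 had 85.4 and 85.2 CPM in MU10, against 18.1, 22.1 and 19.2 CPM in MU14. On the other side, Dyrk2, a protein kinase gene, had 87.1 and 68.3 CPM in MU10, against 342, 185 and 234 CPM in MU14, and wb, a laminin gene, had 1.38 and 1.18 CPM in MU10, against 5.98, 4.52 and 4.20 CPM in MU14. CG31775 lost its call without MU10 replicate 1 or 2 or MU14 replicate 1 or 3 (adjusted p up to 0.13), and CG34166 without MU10 replicate 2 or MU14 replicate 1 or 3 (adjusted p up to 0.12).

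**Figure D5:**
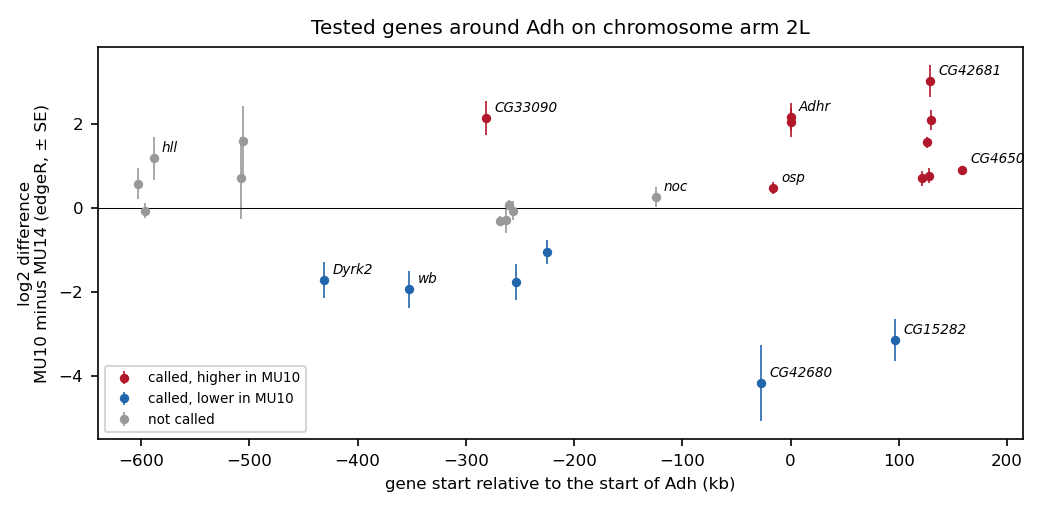
Log2 difference of MU10 minus MU14 with its standard error for the 26 tested genes of the 2L window around Adh, against the distance of each gene's start from that of Adh. The 10 genes higher in MU10 lie mostly at or downstream of Adh, while 4 of the 6 lower ones lie 200 kb or more upstream of it.

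A run of 5 genes higher in MU10 on 3R (19403455 to 19632718) held Aptx, Dys, CG7342, CG16727 and CG6231, with a median log2 difference of 2.12. Dys, the dystrophin gene, had 86.8 and 108 CPM in MU10, against 22.5, 21.9 and 19.0 CPM in MU14 (log2 difference 2.20 ± 0.14 (SE), edgeR's adjusted p = 4.46e-05), and Aptx, a DNA repair gene, had 31.2 and 28.3 CPM in MU10, against 16.2, 17.6 and 17.9 CPM in MU14. CG16727 and CG6231 had MU10 libraries far apart, 1.06 and 6.53 CPM for CG16727, and lost their calls without MU10 replicate 2 and without MU14 replicate 1 or 2, CG16727 also without MU14 replicate 3 (adjusted p up to 0.38 and 0.14), whereas Dys, Aptx and CG7342 kept theirs without any single library. Of the 3 runs of 4 genes the one on 2L (3294926 to 3319872) held CG9663, CG3277, CG15406 and Fign, with a median log2 difference of 3.59, and CG3277 and Fign share exon sequence on opposite strands. In this run CG9663 lost its call without any 1 library other than MU14 replicate 3 (adjusted p up to 0.154), and CG15406 without MU10 replicate 1 or MU14 replicate 1 (adjusted p up to 0.105).

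The other strains show on which side a difference lay. Of the 1615 called genes, MU10 and MU14 held the highest and the lowest of the 5 strain means at 475 (29.4%). MU10 alone was an extreme at 504 (31.2%), MU14 alone at 433 (26.8%), and neither at 203 (12.6%). At genes lower in MU10, both strains were the extremes at 271 of 810, and at genes higher in MU10 at 204 of 805. These shares are descriptions, because the same MU10 and MU14 libraries gave both the calls and the means.

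Exons of further named genes overlap those of a neighbour, so that their values are uncertain where counting did not use strand. They include CG42268, l(2)efl, Hsp27, Hsp67Ba, GstE1, ATPCL, CG4860, Mst87F, Treh, Pglym78, ScsbetaA, mAcon1, ATPsynbeta, SerRS, Myc, Gnmt and Spn42Db, each with a gene on the opposite strand or on both. Lpin shares exon sequence with kermit, Adgf-A with Adgf-A2, Fbp2 with CG42847, and srp, Dys and CG6231 with non-coding RNA genes on the same strand. Acox3 overlaps annotated roo transposon sequence on the opposite strand.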

How the data were processed

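Poly-A RNA of dissected larval fat bodies was sequenced as 150 bp read pairs. The authors mapped the pairs to the FlyBase 6.21 transcriptome with NextGenMap, dropped ambiguous pairs (those with hits in several genes or transcripts), and deposited unnormalised counts per gene, summed over transcripts. Whether counting used strand is not given in the sources used here.

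From the deposited counts, edgeR 4.0.16 (R 4.3.3) was fitted to all 11 libraries with TMM scaling (also used for CPM) and 1 coefficient per strain, so that all strains shared the estimate of spread. Genes needed a mean of 15 counts per library, which 8415 of 13931 genes met. Strains were compared by the two-sided quasi-likelihood F test with Benjamini-Hochberg adjustment over all tested genes, and the SE is the log2 difference divided by the square root of F. Depth was 34631482 to 49582725 counts over the 11 libraries, with both MU10 and MU14 between 35748897 and 49582725, and folds against 0 counts used a floor of 3 counts per strain, which covers counting error only. Alternatives were RLE and upper-quartile scaling, other filters, DESeq2 1.42.0, limma-voom 3.58.1, fewer libraries and a replicate block. The study's own test was DESeq2.

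Strains were taken from the labels. Members and lists were chosen with earlier results of these data known. Named were the 8 called genes of widest difference per direction that averaged 10 CPM or more in MU10 or MU14, the 6 widest called genes per direction among the 200 most abundant, up to 4 called members of each list with at least 5 CPM (or the 2 most abundant where none was called), genes with at most 3 counts in 1 strain and at least 2 CPM in the other, and genes of the 3 longest runs. Adh, osp, Dyrk2, wb, Cyp6a17, Cyp6a23, Cyp6g1, GstE8, RpS5b, RpS19b, Lsp1beta, stan, TotZ and further members named to complete a count were chosen after their values were seen. Of the genes, 13843 matched the Release 6 annotation by FlyBase ID and 84 by CG number, and 4 did not match.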

Additional observations from a re-analysis of the deposited data

How the results depend on the processing

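The count of genes that differed between MU10 and MU14 was within 1.5 times of 1615 under every alternative with all 5 libraries, from 1161 with a replicate block to 2051 by DESeq2. Leaving out 1 library gave 591 to 1235 called genes, 463 to 788 called genes of at least 2-fold and a share of 45.51% to 54.48% higher in MU10, and the lowest count was without MU10 replicate 1. The share higher in MU10 was 31.79% with upper-quartile scaling, 46.96% with the 5 libraries of MU10 and MU14 alone and 47.03% with the replicate block. The deviations of same-numbered MU10 and MU14 libraries from their strain means correlated at 0.128 and 0.0286. With 2 libraries of MU10 these values cannot decide whether the replicate numbers pair the samples. Of 137 called genes, namely Adh and those named by the rule, 62 kept their call under every alternative. Adh, chosen after its values were seen, is among these 62. Calls were kept by 99 under every alternative other than leaving out a library, and 0 reversed. Uncalled genes that changed sign were Fbp1 (log2 difference -0.03938) and Atg8a (-0.0418) with upper-quartile scaling, and, when 1 library was left out, IM33 (-0.23 without MU10 replicate 2, up to 0.5418) and Atg1 (-0.04893 without MU10 replicate 1, up to 0.3537). With 2 libraries of MU10, leaving out 1 removed 64 (replicate 1) and 54 (replicate 2) of the 137 calls, and the cause was not tested.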

Other observations

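The following gene groups were chosen after their values were seen, so their counts are descriptions. Their shares called were 79.2% for DNA replication genes and 60% for septate junction genes, against 19.2% of all tested genes. Of 24 tested DNA replication genes 19 were lower and 0 higher in MU10, with a median log2 difference of -1.48, and 9 were lower without MU10 replicate 1. The replicative helicase gene Mcm5 had 0.669 and 1.21 CPM in MU10, against 4.92, 5.23 and 4.06 CPM in MU14. The ribonucleotide reductase gene RnrS had 7.99 and 5.24 CPM in MU10, against 20.2, 27.5 and 18.9 CPM in MU14. The female germ line markers were also lower in MU10 (4.88 and 7.44 CPM, against 16.7 to 22.8 CPM in MU14), and their part in this group was not tested. Of 20 tested septate junction genes, which build the barrier between epithelial cells, 11 were higher and 1 lower in MU10, and 3 were higher without MU10 replicate 1. Nrx-IV had 79.6 and 65.9 CPM in MU10, against 38.6, 35.5 and 36.4 CPM in MU14. CLS, the cardiolipin synthase gene, had 151 and 123 CPM in MU10, against 11.5, 11.5 and 12.1 CPM in MU14 (log2 difference 3.55 ± 0.11 (SE), edgeR's adjusted p = 1.3e-06), and had the smallest adjusted p of all tested genes. Of 35 tested translation initiation factor genes 2 were higher and 7 lower in MU10 (25.7% called, against 19.2% of all tested genes), with a median log2 difference of -0.02, and 0 were higher and 1 lower without either MU10 library.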
